A study of Mus musculus with 4 samples.

Results

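The genes of the major histocompatibility complex (MHC) described here are 10 named members of the class I and class II antigen presentation systems, found by symbol in a table of 22609 genes from neonatal mouse testis. All 10 were present and all 10 passed the filter on low counts. The class II members are the I-A chains H2-Aa and H2-Ab1, the I-E beta chain H2-Eb1, the invariant chain Cd74, the transactivator Ciita and the peptide exchange chains H2-DMa and H2-DMb1. The class I members are the heavy chains H2-K1 and H2-D1 and the light chain B2m.

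Polyadenylated RNA of whole testes at postnatal day 3 was sequenced in 4 libraries, with 2 in each group. The wild-type group carried the wild-type TR alpha 1 thyroid hormone receptor, the mutant group a dominant-negative TR alpha 1, which blocks the action of the normal receptor. Both groups came from crosses of AmhCre mice with heterozygous carriers of the TRαAMI allele, on a mainly C57BL/6J background. The labels do not say whether wild-type animals carried AmhCre. AmhCre acts in Sertoli cells, the somatic cells that enclose the germ cells, while the RNA came from all cells of the testis. No label names the animals behind a library, and p-values here therefore rest on the spread among 4 libraries, which may be technical. Where a pair of values is given for a group, replicate 1 comes first.

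Class I molecules stand on most nucleated cells and show peptides from inside the cell to cytotoxic T cells. B2m is their shared light chain, and peptides are cut by the proteasome, carried by the transporter Tap and loaded with the help of tapasin. Class II molecules stand mainly on macrophages, dendritic cells and B cells and show peptides from engulfed material to helper T cells. Their chains are escorted by the invariant chain, exchange peptides with the help of H2-DM, and are transcribed together where Ciita is present. In the testis class II is known from macrophages, and germ cells carry little class I.

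Promoters of both classes are known to share short elements, the X box bound by the RFX complex and the Y box bound by NF-Y, on which Ciita and its class I counterpart Nlrc5 assemble. RefSeq promoter windows (GRCm38.p6) matched 7 of the 10 members with 9 windows (H2-K1 and H2-DMa have 2 each), and the 250 bases before each start were searched on both strands. The stretches below are shown because their letters match the X box, the Y box or an interferon-stimulated response element. Only H2-Eb1 matched both the X box and the Y box. Capitals mark the match to the X box in H2-DMb1, and to the X box and then the Y box in H2-Eb1. They mark the match to the Y box in H2-Aa, to the Y box on the opposite strand in H2-D1, and to the interferon-stimulated response element in B2m.
H2-Eb1, chr17:34305755-34305832, plus strand: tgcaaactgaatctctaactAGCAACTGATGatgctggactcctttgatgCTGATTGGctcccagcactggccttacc
H2-DMb1, chr17:34153076-34153126, plus strand: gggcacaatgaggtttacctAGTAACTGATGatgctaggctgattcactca
H2-Aa, chr17:34287847-34287894, minus strand: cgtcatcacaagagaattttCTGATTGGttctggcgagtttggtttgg
H2-D1, chr17:35263021-35263068, plus strand: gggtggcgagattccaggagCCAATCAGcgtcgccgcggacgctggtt
B2m, chr2:122147528-122147577, plus strand: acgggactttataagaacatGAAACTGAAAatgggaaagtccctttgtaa

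The Y box was searched as CTGATTGG and stood in 3 of these 9 windows, against 3.83% of all 32851 windows. The X box, searched as the letters in capitals with positions 3, 4 and 7 free, stood in 2 of the 9 (H2-Eb1 and H2-DMb1), against 0.816% of windows. The shorter CCAAT box, ATTGG, lies inside the Y box and stood in 8 of the 9, at least 1 window of each of the 7 members, against 33.8% of windows. The interferon-stimulated response element, searched as its capitals with positions 5 and 6 free, stood in 1 of the 9 (B2m), against 2.98% of windows, and the gamma-activated site TTCNNNGAA in 0 of the 9, against 7.02%. These matches describe the letters of the windows and are not evidence of binding.

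Gene counts summed to between 10230512 and 15636832 per library. Levels are given as CPM, counts scaled to library sizes adjusted by the trimmed mean of M values (TMM). Sertoli cell markers were present and summed to 6180.1 and 6763 CPM in the wild-type pair, against 5252 and 5249.9 CPM in the mutant pair. Of the 10 markers 2 fell by edgeR, against 2.52% of all tested genes: the tight junction gene Cldn11 (log2 fold change -1.22) and Aard (-1.01). The part of this shift in the results was not tested. Thra, the gene of the altered receptor, was read at 398 and 257 CPM in the wild-type pair, against 237 and 194 CPM in the mutant pair, and counts per gene do not separate normal from mutant transcripts. Skeletal muscle transcripts were higher in both mutant libraries, and highest in mutant replicate 1. Their sum was 14.9 and 13.8 CPM in the wild-type pair, against 2305 and 603 CPM in the mutant pair. Of 8 muscle markers edgeR called 7 higher, against 3.15% of all tested genes, and limma voom called 1.

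None of the 10 MHC genes was called between mutant and wild-type testes, by edgeR's quasi-likelihood test at an adjusted p below 0.05. That rule called 5.67% of all 14788 tested genes, 3.15% higher and 2.52% lower in mutant testes. No member had an unadjusted p below 0.05, against 25.5% of all tested genes, and neither DESeq2 nor limma voom called any. Of 22 macrophage and leukocyte markers in the same libraries 4 rose by edgeR and none fell (5 rose by DESeq2 and 2 by limma voom). The ratio of class II transcripts to these markers was lower in both mutant libraries than in either wild-type library. The same held for class I members set against these markers. With a higher marker sum and overlapping class II sums, the lower ratio is not a result separate from the marker rise. Elsewhere in the pathway edgeR called 3 genes lower: the secreted class I heavy chain gene H2-Q10, the tapasin gene Tapbp and the immunoproteasome subunit gene Psmb10. They were 1 of 8 tested heavy chain, 1 of 8 loading and 1 of 5 proteasome genes, against 2.52% of all tested genes. None of the tested class II processing, regulator, interferon, costimulatory or class I-like genes was called by edgeR. Psmb10 was not called by DESeq2 or limma voom, nor Tapbp with every gene with a count kept.

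B2m, the light chain common to all class I molecules, stood at 159 and 169 CPM in the wild-type pair, against 163 and 185 CPM in the mutant pair. The values of the groups overlapped, and the mutant over wild-type fold was 1.06 (95% interval 0.915 to 1.23). H2-K1 stood at 57.8 and 56.6 CPM in the wild-type pair, against 48.0 and 64.9 CPM in the mutant pair. The mutant libraries thus lay on either side of the wild-type pair, and the fold was 0.992 (0.791 to 1.24). H2-D1, at 42.6 and 46.2 CPM in the wild-type pair, against 41.9 and 59.2 CPM in the mutant pair, showed the same arrangement. Its fold was 1.15 (0.886 to 1.48). Adjusted p-values by edgeR were 0.604 for B2m, 0.968 for H2-K1 and 0.483 for H2-D1.

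Among the chains that form the class II molecule, H2-Aa stood at 7.28 and 9.31 CPM in the wild-type pair, against 6.19 and 8.36 CPM in the mutant pair. Its partner H2-Ab1 stood at 8.41 and 8.33 CPM in the wild-type pair, against 7.10 and 7.34 CPM in the mutant pair. H2-Aa overlapped between the groups, while both mutant values of H2-Ab1 lay below both wild-type values. The folds were 0.900 for H2-Aa (95% interval 0.607 to 1.33) and 0.864 for H2-Ab1 (0.622 to 1.20), with adjusted p-values of 0.747 and 0.563 by edgeR. H2-Eb1, at 8.79 and 6.86 CPM in the wild-type pair, against 5.64 and 8.87 CPM in the mutant pair, overlapped as well. Its fold was 0.940 (0.608 to 1.45; edgeR adjusted p = 0.875). The alpha chain partner of H2-Eb1 was listed only as H2-Ea-ps, with no count in any library.

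Cd74, which escorts new class II chains out of the endoplasmic reticulum, stood at 10.06 and 8.92 CPM in the wild-type pair, against 7.37 and 11.04 CPM in the mutant pair. The wild-type values lay between the mutant ones, and the fold was 0.985 (95% interval 0.670 to 1.45; edgeR adjusted p = 0.964). The peptide exchange chain H2-DMa stood at 3.83 and 4.02 CPM in the wild-type pair, against 3.82 and 2.94 CPM in the mutant pair. Its groups did not overlap, but wild-type replicate 1 and mutant replicate 1 were nearly equal. The second exchange chain H2-DMb1 stood at 2.18 and 2.45 CPM in the wild-type pair, against 1.36 and 2.49 CPM in the mutant pair, and only mutant replicate 1 stood low. Their folds were 0.848 (0.534 to 1.35) and 0.876 (0.473 to 1.62), with adjusted p-values of 0.650 and 0.800 by edgeR.

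Ciita, the regulator without which class II genes stay silent in most cells, had the lowest level per kilobase of the 10. It stood at 1.95 and 1.86 CPM in the wild-type pair, against 1.82 and 1.72 CPM in the mutant pair, from 19 to 27 counts per library. The groups did not overlap, yet the fold of 0.923 had an interval from 0.529 to 1.61 (edgeR adjusted p = 0.872). At these counts the counting error of 1 library alone was 19.2% to 22.9%.

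**Figure D1:**
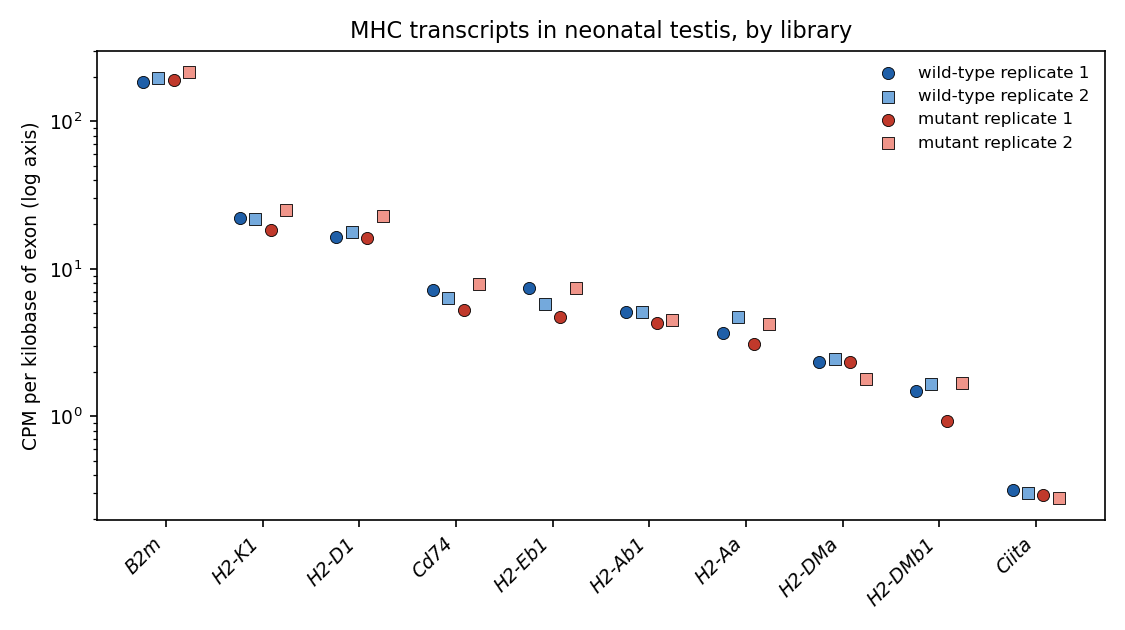
CPM per kilobase of exon (log axis) of the 10 MHC genes in each library, in descending order; each point is 1 library. B2m lies between 185 and 215, the heavy chains between 16.2 and 24.9 and Ciita between 0.278 and 0.315 CPM per kilobase, and mutant replicate 1 is the lowest point in 7 of the 10 genes.

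The fold changes of the class II members were all below 1, with a median log2 fold change of -0.15 and a range from -0.24 to -0.02. The class I members had a median of 0.09, and all tested genes a median of -0.01. Groups did not overlap in 3 of the 10 members (H2-Ab1, H2-DMa and Ciita), each lower in mutant testes, against 29% of all tested genes with the mutant libraries lower. That share is near the background. Without mutant replicate 2 the class II median was -0.37, and without mutant replicate 1 the log2 fold changes of 4 of the 7 class II members were positive. The direction of H2-Aa, H2-Eb1, Cd74 and H2-DMb1 thus rested on single libraries. H2-Ab1, H2-DMa and Ciita stayed lower in mutant testes with each library left out, and none of them was called.

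The mutant libraries differed from each other more than the groups did in 8 of the 10 members, against 38.1% of all tested genes. Mutant replicate 1 was the lowest of the 4 libraries in 7 of the 10 members, against 27.7% of tested genes, and mutant replicate 2 was the highest in 6 of the 10, against 19.6%. The ratio of mutant replicate 2 to mutant replicate 1 was 1.57 for H2-Eb1 (exact 95% interval 1.16 to 2.16), 1.498 for Cd74 (1.14 to 1.98), 1.41 for H2-D1 (1.26 to 1.58) and 1.35 for H2-K1 (1.21 to 1.502). These intervals cover counting error only. They lay off 1 in 6 members for the mutant pair and in 0 of the 10 for the wild-type pair. This share was not computed over all tested genes, so the counts do not set the MHC genes apart. Mutant replicate 2 was above mutant replicate 1 in 8 of the 10 members, against 49.5% of all tested genes. The same held for 19 of 22 macrophage and leukocyte markers, with a median ratio of 1.26. Muscle transcripts were the other way round, and the part of either in the spread of the MHC genes was not tested.

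Per kilobase of exon the order of levels was B2m, H2-K1, H2-D1, Cd74, H2-Eb1, H2-Ab1, H2-Aa, H2-DMa, H2-DMb1 and Ciita. Over the 4 libraries B2m stood at 197 ± 13.2 CPM per kilobase (SD, n = 4), and H2-K1 at 21.8 ± 2.64 and H2-D1 at 18.3 ± 3.11 on the same scale. Cd74 stood at 6.63 ± 1.12, H2-Eb1 at 6.34 ± 1.32, H2-Ab1 at 4.74 ± 0.410 and H2-Aa at 3.92 ± 0.679. The range of H2-K1 overlapped that of H2-D1, and so did the ranges of Cd74 and H2-Eb1, of H2-Eb1 and H2-Ab1, and of H2-Ab1 and H2-Aa. H2-DMa at 2.23 ± 0.296, H2-DMb1 at 1.43 ± 0.354 and Ciita at 0.296 ± 0.0153 were separated from their neighbours in all 4 libraries. Light chain transcripts exceeded those of H2-K1 per kilobase 8.37-fold and 9.08-fold in the wild-type pair, against 10.31-fold and 8.66-fold in the mutant pair. The ratio of H2-Ab1 to H2-Aa per kilobase was 1.396 and 1.08 in the wild-type pair, against 1.39 and 1.06 in the mutant pair, with overlapping groups.

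Of the 10 members, 7 lie on mouse chromosome 17, by the GENCODE M1 annotation of mm9. H2-K1 (34132962 to 34137278, minus strand) is followed by H2-DMa (34272127 to 34276046, plus strand), H2-DMb1 (34290017 to 34297168, plus strand) and H2-Ab1 (34400154 to 34406363, plus strand). H2-Aa (34406276 to 34424772, minus strand), H2-Eb1 (34442828 to 34453144, plus strand) and H2-D1 (35399675 to 35404444, plus strand) come next. H2-Aa and H2-Ab1 share 17 exonic bases on opposite strands, and their reads there cannot be told apart without strand. B2m (chromosome 2, 121973422 to 121978819, plus strand), Cd74 (chromosome 18, 60963502 to 60972300, plus strand) and Ciita (chromosome 16, 10480237 to 10527657, plus strand) lie outside the complex. Between the start of H2-K1 and the end of H2-D1, 65 genes were tested and edgeR called none of them, while 6 had an unadjusted p below 0.05, against 25.5% of all tested genes, and both DESeq2 and limma voom called 0. The median log2 fold change of these 65 was -0.09.

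The heavy chain genes are close copies of one another, and reads that fit several of them were set apart in the authors' counting, so single heavy chain counts are uncertain. Of 29 heavy chain genes listed in the table, 10 had no count in any library and 8 were tested. The family summed to 125.7 and 129.7 CPM in the wild-type pair, against 110.0 and 143.3 CPM in the mutant pair.

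H2-Q10, which encodes a secreted class I molecule known mostly from liver, was the one heavy chain gene called. It stood at 6.08 and 4.90 CPM in the wild-type pair, against 1.27 and 1.596 CPM in the mutant pair, from 81, 50, 14 and 25 counts. Both mutant libraries were low, and the log2 fold change was -1.92 ± 0.32 (SE; edgeR adjusted p = 0.0212). Leaving out wild-type replicate 1 ended the call at a log2 fold change of -1.74 (edgeR adjusted p = 0.124), and so did leaving out wild-type replicate 2, at -2.05 (adjusted p = 0.0762). Another Q region heavy chain gene, H2-Q2, named after its value was seen, had 24 and 10 counts in the wild-type pair, against 3 and 4 in the mutant pair. Its ratio of wild type over mutant was 5.51 (exact 95% interval for counting error 2.40 to 14.7), and it was not called (edgeR adjusted p = 0.0558). Of 10 germ cell markers 7 fell, against 2.52% of all tested genes. The 10 summed to 864 and 587 CPM in the wild-type pair, against 343 and 295 CPM in the mutant pair. Their part in the fall of H2-Q10 was not tested.

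The genes that cut and load class I peptides were mostly not called. Of 8 loading genes 1 fell and 7 were not called, against 2.52% of all tested genes called lower, with a median log2 fold change of -0.06. Tapbp encodes tapasin, which holds empty class I molecules next to the transporter. It went from 203 and 198 CPM in wild-type to 153 and 156 CPM in mutant replicates 1 and 2, a log2 fold change of -0.37 ± 0.08 (SE; edgeR adjusted p = 0.0365). The transporter genes Tap1 and Tap2, named after their values were seen, had log2 fold changes of -0.11 ± 0.21 and -0.31 ± 0.19 and were not called. The call of Tapbp was lost with every gene with a count kept (edgeR adjusted p = 0.0569) and in each fit that left out 1 of the 4 libraries, at adjusted p-values from 0.0774 to 0.141, while its log2 fold change stayed between -0.39 and -0.36.

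Of 5 immunoproteasome and proteasome activator genes, 1 fell and 4 were not called, against 2.52% of all tested genes called lower. The log2 fold changes of all 5 were negative, with a median of -0.39, while 49.2% of all tested genes had a positive one. Psmb10, a catalytic subunit of the immunoproteasome, stood at 34.2 and 29.7 CPM in the wild-type pair, against 20.7 and 22.02 CPM in the mutant pair. That was a log2 fold change of -0.58 ± 0.14 (SE; edgeR adjusted p = 0.0490). This call lay at the threshold: it was lost by DESeq2 (adjusted p = 0.0556) and limma voom (0.0545), with library size alone (0.0510), with every gene with a count kept (0.0636), with the replicate number as a block (0.0668), and without each library in turn (0.0556 to 0.170). The other catalytic subunit genes Psmb9 and Psmb8, named after their values were seen, had log2 fold changes of -0.68 ± 0.30 and -0.20 ± 0.32. The activator gene Psme2 was at -0.39 ± 0.18.

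Regulators of MHC transcription were not called by edgeR. Of 13 tested, 5 had an unadjusted p below 0.05, against 25.5% of all tested genes, and DESeq2 and limma voom called 0, with a median log2 fold change of -0.02. The myeloid factor Spi1, listed under its older symbol Sfpi1, stood at 4.28 and 4.41 CPM in the wild-type pair, against 7.19 and 8.24 CPM in the mutant pair (log2 fold change 0.84 ± 0.24, SE; edgeR adjusted p = 0.0757). Nlrc5, the class I transactivator, had only 10 to 18 counts per library and a log2 fold change of -0.02 ± 0.43.

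Interferon genes gave no edgeR call in 25 tested. Of the 25, 16 had a positive log2 fold change, against 49.2% of all tested genes, with a median of 0.07. An unadjusted p below 0.05 was found for 7 of them, 5 higher and 2 lower, against 25.5% of all tested genes. DESeq2 called 1 of them, lower in mutant testes, and limma voom called 0. The 2 with the smallest p were both lower: Ifngr2, a chain of the interferon gamma receptor, was at -0.38 ± 0.11 (edgeR adjusted p = 0.0751) and Bst2, a membrane protein induced by interferon, at -0.29 ± 0.09 (adjusted p = 0.0940). Ifng itself had 0 to 2 counts per library. Of 6 class II processing genes edgeR called none, no unadjusted p fell below 0.05, and DESeq2 and limma voom also called 0. Ctss, the cathepsin that trims the invariant chain in macrophages, was at 0.48 ± 0.22, and March1, a ligase that removes class II from the cell surface, at 0.76 ± 0.37. Costimulatory genes gave 0 calls in 4 tested by any of these tools, and 1 unadjusted p was below 0.05, against 25.5% of all tested genes. Icosl, a ligand of T cells, was at 0.19 ± 0.12 and Cd274, which dampens T cells, at -0.92 ± 0.36. Among 4 tested class I-like genes outside the complex edgeR and the other tools called none, and no unadjusted p was below 0.05. The lipid-presenting Cd1d1 was at 0.13 ± 0.17 and the iron regulator Hfe at -0.14 ± 0.14.

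**Figure D2:**
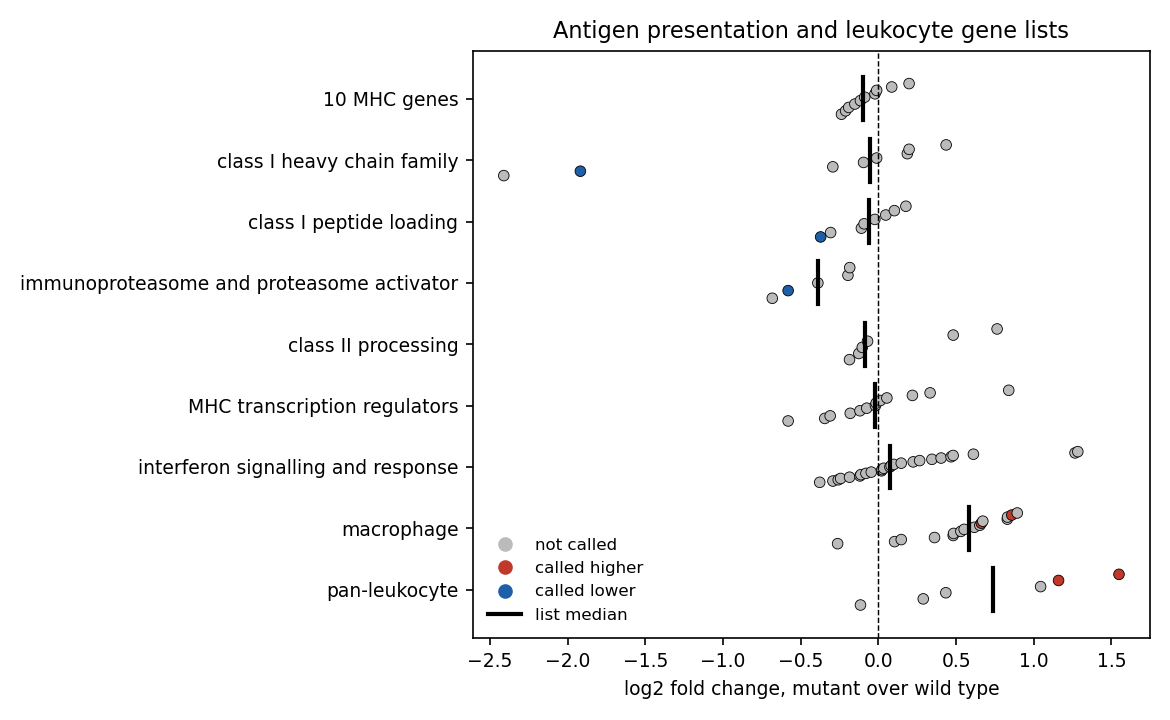
Log2 fold change, mutant over wild type, of each tested gene in 9 lists, with 1 point per gene and a bar at the list median. The 10 MHC genes lie between -0.24 and 0.20, the immunoproteasome median is -0.39, and the macrophage and pan-leukocyte medians are 0.58 and 0.74; red and blue points passed the test.

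In bulk RNA, fewer cells of a type and less RNA per cell cannot be told apart, and this holds for each marker comparison here. Of 16 macrophage markers 2 rose by edgeR, 3 by DESeq2 and 0 by limma voom, and none fell. Of all tested genes edgeR called 3.15% higher. The median log2 fold change of the 16 was 0.58, and 13 of them did not overlap upward, against 28.3% of all tested genes. Csf1r, the receptor macrophages need, rose 1.58-fold (edgeR adjusted p = 0.0490) and C1qb, a complement chain made by macrophages, 1.81-fold (adjusted p = 0.0461). Of 6 markers common to leukocytes 2 rose by each of these tools. Laptm5, a lysosomal protein of blood cells, rose 2.23-fold (adjusted p = 0.00516) and the leukocyte integrin gene Itgb2 2.92-fold (adjusted p = 0.0184). Csf1r and C1qb were not called by limma voom (adjusted p = 0.0592 for each), with library size alone (0.0553 and 0.0508) or with every gene with a count kept (0.0695 and 0.0683), nor once wild-type replicate 1, wild-type replicate 2 or mutant replicate 2 was left out (0.0931 to 0.206). Itgb2 lost its call without wild-type replicate 1 (edgeR adjusted p = 0.100). Without mutant replicate 1, the median log2 fold change of the macrophage markers was 0.79.

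Markers of dendritic, B, and T and natural killer cells were read as well. The dendritic list summed to 623 and 660 counts in the wild-type pair, against 643 and 846 in the mutant pair. The T and natural killer list summed to 245 and 190 counts, against 193 and 282. The B cell list gave few counts, 34 and 34 against 41 and 47. Some single genes were near 0. The dendritic cell genes Itgax and Clec9a had at most 9 and 4 counts in any library. The B cell gene Ms4a1 had at most 3, and the T cell gene Cd3e at most 6. Only 3 of 9 dendritic, 2 of 7 B cell and 2 of 9 T and natural killer cell markers were tested, and edgeR, DESeq2 and limma voom called none of these, none of which had an unadjusted p below 0.05. By the naming rule these were the cytokine receptor Flt3 (log2 fold change 0.40 ± 0.28) and the factor Batf3 (0.07 ± 0.26), the B cell receptor chains Cd79a (0.65 ± 0.57) and Cd79b (0.29 ± 0.39), and the T cell receptor chains Cd3g (-0.23 ± 0.48) and Cd247 (-0.03 ± 0.16).

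Class II transcripts were next set against macrophage and leukocyte markers within each library. The summed level of H2-Aa, H2-Ab1, H2-Eb1 and Cd74 was 34.5 and 33.4 CPM in the wild-type pair, against 26.3 and 35.6 CPM in the mutant pair. The 22 markers summed to 358 and 451 CPM in the wild-type pair, against 553 and 743 CPM in the mutant pair. The ratio of these sums was 0.0965 and 0.0741 in the wild-type pair, against 0.0475 and 0.0480 in the mutant pair. Both mutant values were below both wild-type values (exact two-sided permutation p = 0.333, the smallest that 2 libraries against 2 allow). The marker sum itself was higher in both mutant libraries while the class II sums overlapped, so the lower ratio is not separate from the marker rise. Lyz2 alone made up 23.8% to 33.2% of the marker sum. With it left out, a step chosen after seeing the data, the ratios were 0.127 and 0.105 in the wild-type pair, against 0.0665 and 0.0718 in the mutant pair. On the scale of mean log2 CPM, the 4 class II genes minus the 22 markers stood at -0.26 and -0.59 in the wild-type pair, against -1.21 and -1.08 in the mutant pair.

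**Figure D3:**
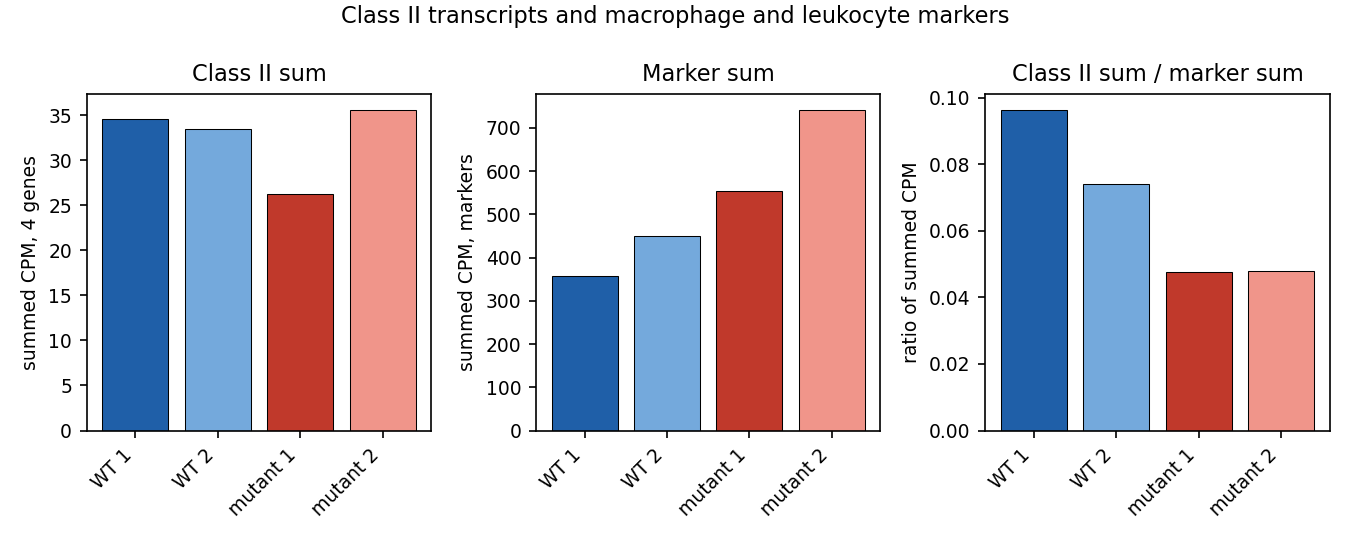
Summed CPM of 4 class II genes (left), summed CPM of 22 macrophage and leukocyte markers (middle) and their ratio (right), with 1 bar per library. The class II sum stays between 26.3 and 35.6 CPM while the marker sum runs from 358 to 743 CPM, and both mutant ratios, 0.0475 and 0.0480, lie below the wild-type ratios of 0.0965 and 0.0741.

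The same was measured for class I and for the balance of the classes. The mean log2 CPM of the class I members minus that of the 22 markers was 2.83 and 2.61 in the wild-type pair, against 2.19 and 2.26 in the mutant pair. The mean log2 CPM of the 7 class II members minus that of the 3 class I members was -3.85 and -3.91 in the wild-type pair, against -4.10 and -4.16 in the mutant pair. That is a difference of -0.25, and the groups did not overlap (exact two-sided permutation p = 0.333, the smallest possible). The ratio of H2-K1 to H2-D1 counts was 1.36 and 1.23 in the wild-type pair, against 1.15 and 1.10 in the mutant pair, likewise without overlap (exact p = 0.333).

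**Figure D4:**
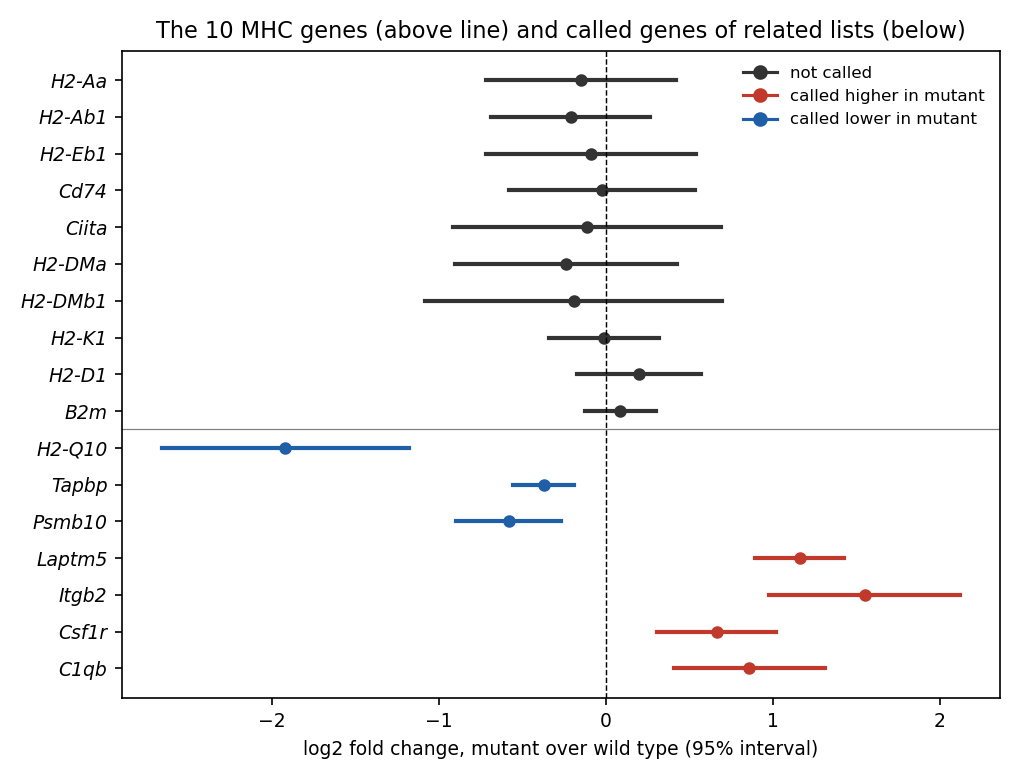
Log2 fold change, mutant over wild type, with its 95% interval from edgeR, for the 10 MHC genes and for 7 called genes of related lists. Each interval of the 10 spans 0, and the highest upper bound among them, 0.70 for H2-DMb1, lies below the lower bounds of Laptm5 (0.89) and Itgb2 (0.98). It lies above the lower bounds of Csf1r (0.30) and C1qb (0.40).

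The intervals state how much change these libraries leave possible. For class I they ran from a fold of 0.791 (H2-K1) to 1.48 (H2-D1), and for class II from 0.473 to 1.62 (both H2-DMb1). The 2.23-fold rise of Laptm5, the macrophage or leukocyte marker with the smallest p, therefore lay above the upper bound of each of the 10 members. So did the 1.81-fold rise of C1qb, while the 1.58-fold rise of Csf1r lay below the upper bounds of H2-DMb1 and Ciita (1.61). The macrophage median, a log2 fold change of 0.58, also lay within the intervals of these 2 genes.

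By distance between centred log2 CPM profiles over the 4 libraries, the tested genes nearest to the mean class II profile were Letm2, Slc35b1, Orc6, Mat2a and Prorsd1, at distances from 0.00616 to 0.0244. The profile is a shared one: it stood at 0.09 and 0.08 in the wild-type pair, against -0.23 and 0.06 in the mutant pair, and 897 of 13482 compared genes lay nearer to it than the nearest class II member, H2-Ab1. With 4 libraries this likeness is a description only.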

How the data were processed

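The authors deposited 1 table of read counts per gene for the 4 libraries. The deposited columns were treated as estimated counts, since lines under the genes hold percentages. The deposited gene values are whole numbers, so rounding changed nothing, and they sum to the table's own totals. The submitters' processing notes name TopHat 1.4.0, CASAVA 1.8.1, DESeq2, HTSeq and the build mm9 without saying what each did. Neither the annotation nor the use of strand is stated there. Reads in no gene (13.8% to 17.3% of counted reads) and ambiguous reads were left out.

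Counts were tested with edgeR 4.0.16 in R 4.3.3 (quasi-likelihood, TMM, minimum count 10, minimum total 15, legacy and robust options off, genotype only), adjusted by Benjamini-Hochberg over 14788 genes and called below 0.05. Intervals are 95%, from the standard error (SE). Exact intervals are binomial. Other settings were DESeq2 1.42.0, limma 3.58.1 voom, other scalings and filters, a replicate block and each library left out. The fits were tested on simulated data. Levels per kilobase use GENCODE M1 exon lengths. Promoters are from RefSeq.

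The members and lists were chosen with earlier results of these data known. Named genes are the 10 members, up to 4 called genes per list or else the 2 with the smallest p, and the 5 nearest profiles. Not every gene this rule takes from the marker lists of other testis cells is described. Some genes the rule takes are not reported here.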

Additional observations from a re-analysis of the deposited data

How the results depend on the processing

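No member was called in any of the 12 other settings (7 of the 10 were tested at a minimum count of 50). Class II minus class I and class II per marker were recomputed with library size alone and without each library. Both stayed lower in mutant testes, but neither step could have changed that direction. Each measure is taken within a library, so scaling the library leaves it unchanged. The groups did not overlap in either measure, so leaving out any library keeps the sign. Over all tested genes, limma voom called 309 higher, and keeping every gene with a count gave 282 higher and 218 lower. With a replicate block 512 were higher, 341 lower and 0 members called; same-numbered libraries did not deviate together (r = -0.03 over 14788 genes, 2 pairs), so the numbers were not taken as pairs. Psmb10 lost its call under the block (adjusted p = 0.0668).

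Leaving out each library in turn gave 34 to 818 genes higher and 40 to 477 lower. The class II median ran from -0.37 (without mutant replicate 2) to 0.024 (without mutant replicate 1), and the class I family sum from -0.22 to 0.17. Directions of uncalled members changed with the library left out: H2-Aa ran from -0.41 to 0.024, H2-Eb1 from -0.49 to 0.17, Cd74 from -0.37 to 0.21, H2-DMb1 from -0.75 to 0.11, H2-K1 from -0.25 to 0.18, H2-D1 from -0.084 to 0.42 and B2m from -0.0104 to 0.17. The cause was not tested. H2-Ab1, H2-DMa and Ciita kept negative log2 fold changes in each of these fits. H2-D1 was the 1 member with an unadjusted p below 0.05 in such a fit (without mutant replicate 1, adjusted p = 0.138). With 19 to 27 counts of Ciita and 15 to 39 of H2-DMb1 per library, depth limits what these 2 genes can show.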
